A study of Mus musculus with 2 samples.

Results

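CpG-dense regions are the stretches of the array where the probes themselves are rich in CpG dinucleotides, a C followed by a G on the same strand. A probe was counted as CpG-dense when its sequence, of 45 to 60 bases, held at least 4 CpG. Neighbouring CpG-dense probes less than 500 bp apart on numbered chromosomes were joined, and a region needed at least 2 of them. The rule found 3770 regions, 1920 on array 1 and 1850 on array 2, made of 9945 of the 456788 probes on numbered chromosomes. Joined in the same way, all probes there gave 38332 tiled regions. A further 5057 CpG-dense probes had no such neighbour. Of the regions, 2204 held 2 probes, 1002 held 3 and 564 held at least 4, with 10 at most. They were 144 to 2176 bp long, with a median of 366 bp. The rule read only sequences and positions and used no measured value, but it was chosen with earlier results of these data known.

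The study mapped Ring1B, the ubiquitin ligase encoded by Rnf2, by ChIP-chip in embryonic stem (ES) cells of the mouse. Chromatin fixed with formaldehyde was immunoprecipitated with a monoclonal Ring1B antibody, and the recovered DNA (IP, Cy5) was hybridised with input DNA (Cy3) after linker-mediated PCR. There were 2 groups, each a single array of one promoter set: ES cell IP over input on array 1, with chromosomes 1 to 8 and part of 9, and the same on array 2, with the rest. No line, genotype, strain, passage or treatment of the cells is stated in the labels, whose source names begin with Muscle while the titles name ES cells. Both arrays had the same dye orientation, without a dye swap or a mock IP, and no RNA was measured against which the cell type could be checked. The arrays shared 0 probes. Each region was therefore measured once, and no test or p-value across regions is given. An error of a region is the SD over its probes, which are not replicates.

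CpG dinucleotides are scarce in the mouse genome except in CpG islands, where they escape methylation. Such islands cover the start sites of most widely expressed genes and of many developmental genes. Polycomb repressive complex 1 (PRC1), whose catalytic core is Ring1B or Ring1A with a PCGF protein, places ubiquitin on histone H2A, and PRC2 methylates histone H3 at lysine 27. In ES cells both complexes are known from islands of developmental genes that are kept silent. KDM2B, a subunit of a variant PRC1, binds unmethylated CpG through its CXXC domain. The question put to these data was which CpG-dense promoters carried Ring1B and which did not.

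The following probes show what CpG-dense means here. They come from the regions chosen by the naming rule that hold a probe annotated upstream of the gene: the 5 highest and the 5 lowest of them. Each is the upstream probe with the most CpG, as the array file gives it, 5′ to 3′. Every CpG is in capitals. The first 5 are from the highest of these regions.
D930049A15Rik/Zmiz1: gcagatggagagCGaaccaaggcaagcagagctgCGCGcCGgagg
Ntn1: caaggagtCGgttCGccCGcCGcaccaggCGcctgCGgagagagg
Slc6a20a: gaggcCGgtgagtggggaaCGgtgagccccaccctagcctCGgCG
Slc24a4: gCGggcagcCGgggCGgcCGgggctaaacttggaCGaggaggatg
Aurka/Cstf1: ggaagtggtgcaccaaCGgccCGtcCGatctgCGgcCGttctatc

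The next 5 are from the lowest of them.
Ep400: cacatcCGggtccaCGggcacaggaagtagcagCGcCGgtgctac
Khsrp: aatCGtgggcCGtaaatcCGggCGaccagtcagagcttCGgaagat
Ttc7: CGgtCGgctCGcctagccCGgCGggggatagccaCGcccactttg
Tfg: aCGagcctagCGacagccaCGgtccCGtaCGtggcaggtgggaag
Rbbp4/Zbtb8os: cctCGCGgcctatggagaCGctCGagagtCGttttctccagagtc

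By CpG number the sets overlap. The high probes held 4 to 6 CpG and the low ones 4 to 6. The log2 ratio of IP over input, set to 0 at the array's median probe, was 4.16 at the D930049A15Rik/Zmiz1 probe (chr14:23130261-23130305) but 0.41 at that of Ntn1 (chr11:68467727-68467771). It was -2.52 at the Khsrp probe (chr17:55242775-55242820) and -0.31 at that of Ttc7 (chr17:85585235-85585279). A single probe thus did not give the value of its region. For the array coordinates no build is named in the labels or headers, so they were set beside no other build.

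The 250 bases before the RefSeq start (GRCm38.p6) are shown for 4 genes with 1 RefSeq promoter entry whose CpG-dense probe matched there exactly. The bases of the matched probe are in capitals. Evx2 and Dlx2, homeobox genes of the limb and forebrain, had high regions and were taken from developmental regions of any probe number. Khsrp encodes an RNA-binding protein and Ep400 a chromatin remodeller. They had the lowest regions of at least 4 probes that could be matched, and smaller regions were not searched on this side.
Evx2: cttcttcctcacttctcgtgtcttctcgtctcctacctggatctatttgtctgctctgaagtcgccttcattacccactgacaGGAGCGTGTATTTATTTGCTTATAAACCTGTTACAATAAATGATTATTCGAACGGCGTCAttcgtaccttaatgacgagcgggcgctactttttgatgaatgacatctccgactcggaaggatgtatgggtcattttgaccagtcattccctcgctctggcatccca
Dlx2: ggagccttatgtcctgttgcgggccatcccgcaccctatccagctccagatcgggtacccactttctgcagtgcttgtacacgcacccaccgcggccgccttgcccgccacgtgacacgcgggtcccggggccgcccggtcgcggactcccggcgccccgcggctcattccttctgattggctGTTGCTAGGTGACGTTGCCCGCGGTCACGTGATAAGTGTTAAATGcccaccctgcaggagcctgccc
Khsrp: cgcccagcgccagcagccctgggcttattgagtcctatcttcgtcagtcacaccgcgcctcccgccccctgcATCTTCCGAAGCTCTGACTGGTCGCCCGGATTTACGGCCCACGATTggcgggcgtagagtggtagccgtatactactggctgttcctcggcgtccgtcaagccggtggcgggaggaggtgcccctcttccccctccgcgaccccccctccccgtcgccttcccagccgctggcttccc
Ep400: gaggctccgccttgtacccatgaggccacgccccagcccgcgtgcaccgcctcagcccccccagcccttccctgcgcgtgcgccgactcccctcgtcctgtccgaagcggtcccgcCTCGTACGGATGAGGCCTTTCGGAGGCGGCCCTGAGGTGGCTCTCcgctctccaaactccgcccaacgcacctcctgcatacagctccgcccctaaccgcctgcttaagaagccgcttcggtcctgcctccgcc

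These upstream windows held 14 CpG in Evx2, 24 in Dlx2, 24 in Khsrp and 25 in Ep400. The matched probe read 1.67 in Evx2 (bases -167 to -108 from the start), 4.20 in Dlx2 (-67 to -23), -2.52 in Khsrp (-178 to -133) and -0.52 in Ep400 (-134 to -90). Dlx2 and Khsrp therefore had the same number of CpG upstream and matched probes of opposite sign. Their region means were 2.47 and -1.19. The other probe of the Dlx2 region read 0.75, and the other Khsrp probes read -0.42, -1.29 and -0.51. The GRCm38.p6 windows are chr2:74659558-74659807 for Evx2, chr2:71546755-71547004 for Dlx2, chr17:57031508-57031757 for Khsrp and chr5:110770718-110770967 for Ep400, all on the minus strand.

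A region's value is the mean log2 ratio over its CpG-dense probes, and a region was called high at or above 1, a ratio of IP over input at least 2-fold that of the median probe, and low at or below -1. Of the 3770 regions, 594 (15.8%) were high and 91 (2.41%) were low. The median region stood at 0.27, and the quartiles were -0.10 and 0.72. Blocks of 2 consecutive probes with fewer CpG, 206758 in number, were high in 15.9% and low in 19% of cases. For blocks of 2 probes of any CpG number the shares were 16.1% and 18.5%. The share of high regions was thus close to that of other probes, while low values were rarer among CpG-dense regions. The 2 kinds of probe differed in signal. Both channels held the software's floor value at 19.9% of probes with 0 CpG and at 0.52% of the regions' probes. Input stood well above background at 71.9% and 98.3% of them. The part of signal strength in the difference between the tails was not tested. Of the 564 regions of at least 4 probes, 72 (12.8%) were high and 5 (0.887%) were low, against 11.1% and 15.2% of blocks of 4 probes with fewer CpG.

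**Figure D1:**
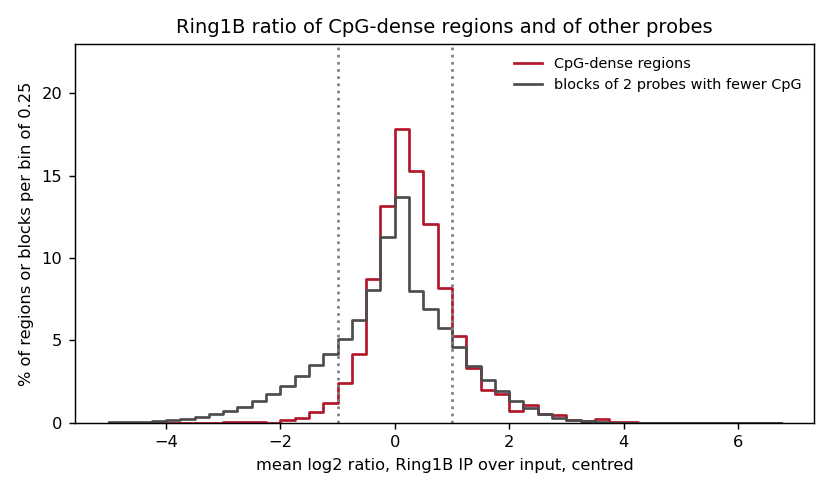
Distribution of the mean log2 ratio of Ring1B IP over input, in bins of 0.25, for the 3770 CpG-dense regions (red) and for 206758 blocks of 2 consecutive probes with fewer than 4 CpG (grey); dotted lines mark -1 and 1. The upper tails lie close together at 15.8% and 15.9%, and the lower tail of the regions is shorter, at 2.41% against 19%. Many regions hold more than 2 probes, and those of exactly 2 were high in 17.6% and low in 3.18% of cases.

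How far the regions stood above other probes depended on the background correction. With normexp correction in place of the scanner software's subtraction, 28.6% of the regions and 15.9% of the blocks of 2 probes with fewer CpG were high. After loess the shares were 25.8% and 13.5%, and in the deposited series table, after centring, 26.5% and 15.5%. High calls made up 86.7% of all calls on regions in the values used here, 98.2% after normexp and 97.7% in the series table. These settings moved the median region to 0.66, 0.57 and 0.62, while the blocks' median stayed between -0.02 and 0.03.

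The ratio rose with the number of CpG in the probe. The median log2 ratio of single probes was -0.01 with 0 CpG, 0.13 with 3 (just outside the rule), 0.15 with 4 (just inside it), 0.35 with 6 and 0.61 with 8 or more. The spread narrowed at the same time, from an SD over probes of 1.35 with 0 CpG to 0.70 with 8 or more. The share of probes at or below -1 fell from 22.0% with 0 CpG to 9.95% with 4 and 2.45% with 7. The share at or above 1 peaked at 27.6% with 3 CpG and was 23.3% with 4.

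CpG number and base composition went different ways. Among probes of 60 to 65% G+C, the median ratio was -0.43 with 0 or 1 CpG, -0.09 with 2 or 3, 0.18 with 4 or 5 and 0.50 with 6 or more. Among probes with 4 or 5 CpG, it fell from 0.58 at 45 to 50% G+C to 0.06 at 70% and over. Over regions, 36.6% of those under 55% G+C were high, against 6.05% of those at 70% and over. The share also differed by input signal: 29.4% of the regions in the dimmest of 5 equal classes by input signal were high, against 5.70% in the brightest. Low regions went the other way, with 0.398% and 5.57%. Input is the denominator of the ratio, so these classes are not independent of the calls. The part of probe composition and input signal in the ratios was not tested beyond a correction for the number of G and C in the probe, which left 604 regions high.

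**Figure D2:**
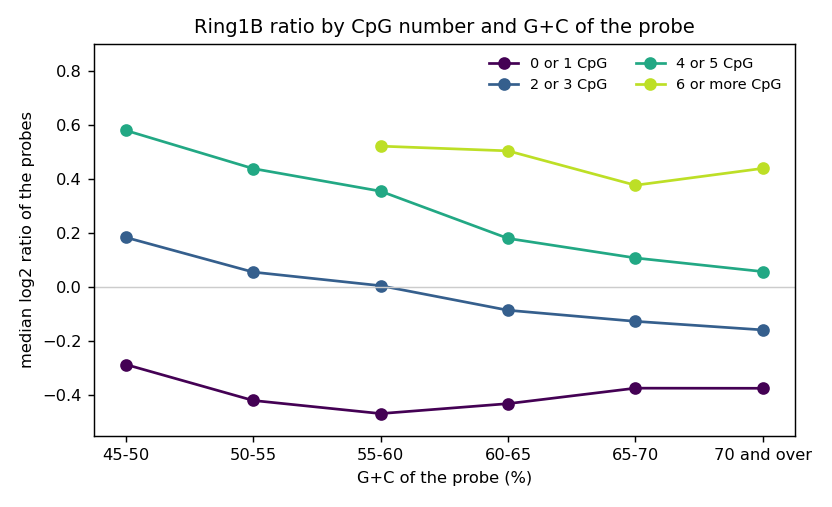
Median log2 ratio of Ring1B IP over input of single probes (vertical axis) by the G+C of the probe in percent (horizontal axis), with 1 line for each class of CpG number. At 60 to 65% G+C the lines stand at -0.43, -0.09, 0.18 and 0.50 from fewest to most CpG.

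The 3 lists of developmental genes, homeobox regulators, other developmental transcription factors and signalling genes, held 163 regions of 137 genes. Of these, 98 (60.1%) were high and 1 was low, with a median of 1.23. The 9 lists of housekeeping genes held 145 regions, of which 13 (8.97%) were high and 3 were low, with a median of 0.12. The regions on neither kind of list were high in 13.95% of cases (483 of 3462), with a median of 0.25. The exact 95% binomial intervals were 52.2 to 67.7% for developmental and 4.86 to 14.8% for housekeeping regions. They cover counting only and treat neighbouring regions of 1 gene as separate. The lists were chosen with earlier results of these data known, which the intervals do not cover.

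The gap between developmental and housekeeping regions was present in both arrays, with 62.8% against 10.4% high on array 1 and 56.5% against 7.69% on array 2. It was present in each class of G+C, with 87.5% against 15% under 60%, 71.1% against 8.89% at 60 to 65%, and 44.2% against 5.00% at 65% and over. It was also present in each of these 5 classes of input signal. In the dimmest 76.0% of developmental and 28.2% of housekeeping regions were high, and in the brightest 30.6% and 0%. Of the 13 high housekeeping regions, 11 lay in the dimmest class and 2 in the next.

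**Figure D3:**
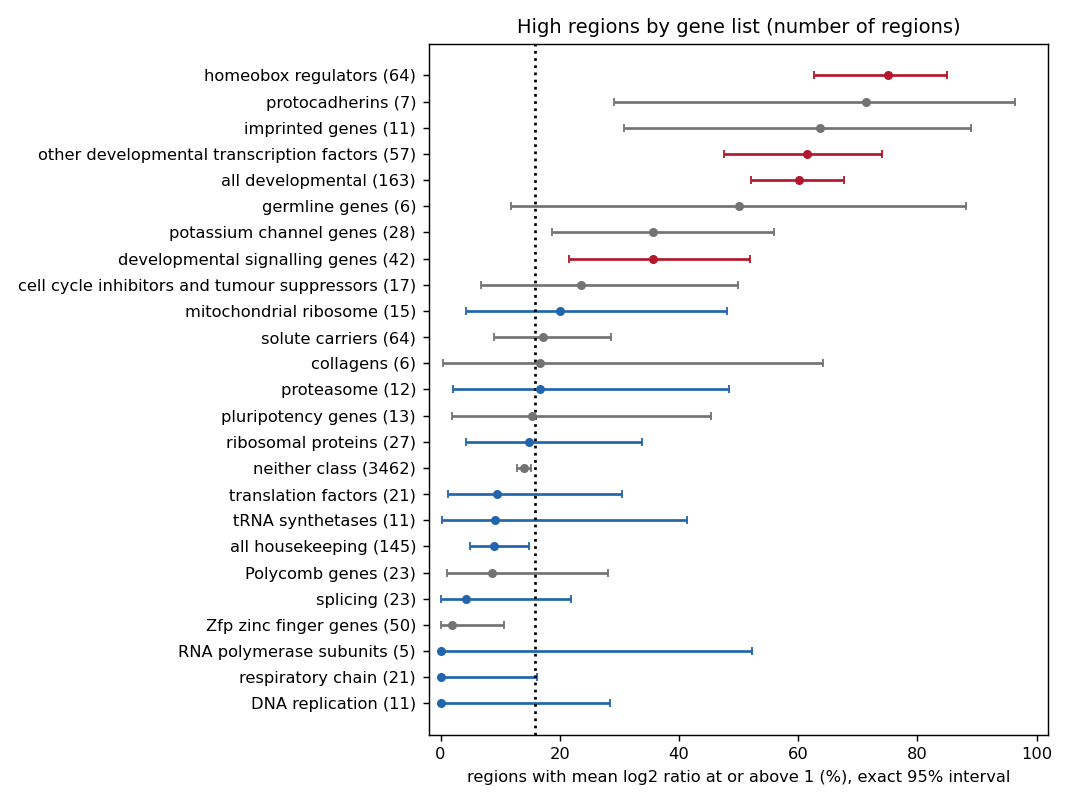
Share of regions with a mean log2 ratio at or above 1 in each gene list with at least 5 regions (points) with its exact 95% binomial interval (bars); numbers in brackets are regions, developmental lists are red, housekeeping lists blue and others grey. The dotted line is the share of all regions, 15.8%; homeobox regulators stand at 75% and all housekeeping lists together at 8.97%.

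Homeobox regulators, which set position and cell identity in the embryo, were high in 48 of 64 regions (median 1.44). Gsx2, a regulator of the ventral forebrain, stood at 4.01, from probes at 4.49 and 3.53 inside the gene (chr5:74494005-74494214), a 16.1-fold ratio. Hoxc11, of the HoxC cluster, stood at 3.53, with its 3 probes at 3.84, 3.36 and 3.40 (chr15:102941117-102941723). All probes of both regions lay far above the threshold. Lhx5, a LIM homeobox gene of the forebrain, had probes at 4.21 and 2.98 (mean 3.59, 12.1-fold). Cdx2, the trophectoderm and hindgut regulator, had 1.99 and 2.59 (mean 2.29), and Pax6, of the eye and brain, 1.80 and 1.86 (mean 1.83). Nkx6-2 and Nkx6-1, of the neural tube, each had a region of 4 probes. The Nkx6-2 probes read 2.07, 1.11, 0.66 and 2.56 (mean 1.60 ± 0.87, SD over probes), and those of Nkx6-1 had a mean of 1.33 ± 0.78.

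Other developmental transcription factors were high in 35 of 57 regions (median 1.36). The highest region of the list was that of Foxd4, a forkhead gene, with probes at 5.39 and 2.98 inside the gene (mean 4.18, 18.2-fold). Gata3, a regulator of T cells and several epithelia, had all 3 of its upstream probes high, at 2.92, 4.15 and 4.13 (chr2:9821773-9822226, mean 3.73). Neurod2, a neuronal bHLH factor, had probes from 0.36 to 4.89 (mean 2.47 ± 1.94). Its SD shows how unequal probes of 1 region could be. Foxl2, of the ovary, had 3 probes between 2.26 and 3.15 beside 2 at -1.21 and 0.08 (mean 1.46 ± 1.94). Gata6, the endoderm regulator, read 2.09, -0.86, -0.38 and 2.50, so that its mean of 0.84 was under the threshold.

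Developmental signalling genes were high in 15 of 42 regions (median 0.76). Bmp6, a BMP ligand, had 1 upstream region at 3.48 and 1 inside the gene at 2.28. Ntn1, which encodes the axon guidance ligand netrin-1, had 5 of 6 probes between 2.90 and 3.44 and the last at 0.41 (mean 2.73 ± 1.15). Wnt11, a Wnt ligand, stood at 2.37, and the Wnt receptor genes Fzd10 and Fzd8 at 2.17 and 2.04. At the other end, Wnt7b, also a Wnt ligand, had all 3 probes below the array's median, at -0.99, -0.71 and -0.78, and the Notch ligand gene Jag1 stood at -0.55.

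Of the other lists, imprinted genes, which are expressed from 1 parental copy, were high in 7 of 11 regions (63.6%). Among all regions the share was 15.8%. Rasgrf1, an exchange factor gene expressed from the paternal copy, stood at 3.68, a 12.8-fold ratio. Cdkn1c, a cell cycle inhibitor gene, had regions at 1.83 and 1.07, Dlk1 stood at 1.81 and Phlda2 at 1.65. Ube3a, Igf2r, Grb10 and Ppp1r9a made up the 4 regions under 1, between -0.08 and 0.35. The members Ascl2 (1.82) and Igf2 (1.32), are on developmental lists too. Protocadherin genes, which encode neuronal adhesion proteins, were high in 5 of 7 regions, led by Pcdh10 at 3.15 and 1.73. Potassium channel genes were high in 10 of 28 regions (35.7%), with both regions of Kcna1 at 2.37 and 2.11.

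Germline genes were high in 3 of 6 regions: the shared promoter of Stag3 and Gpc2 at 2.01, that of Ddx4 and Slc38a9 at 1.76, and Syce2 at 1.45. Dazl, another germline gene, had probes at -0.86, 1.42, 0.52 and 2.31 (mean 0.85 ± 1.35). Its flank stood at 0.16 and that of Ddx4 at -0.33, whereas that of Syce2 stood at 1.28. Pluripotency genes were high in 2 of 13 regions (15.4%), close to the share of all regions. These were Tcf7l1 at 1.11 and Utf1 at 1.05. Klf4, one of the reprogramming factors, stood at 0.34 ± 0.70 over 6 probes. No region was found at Pou5f1, Sox2 or Myc, or at 11 more of the 26 genes named in advance, so they do not enter.

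Polycomb genes were high in 2 of 23 regions. Among the high ones was the shared promoter of Pcgf1, a PRC1 subunit gene, and the homeobox gene Tlx2. The array gave that promoter pair 2 regions, 1.14 at chr6:83095334-83095739 and -1.78 at chr6:83102945-83103358. Another region, inside Tlx2, stood at 1.16. Rnf2, which encodes Ring1B itself, had probes at -2.01 and 0.03 (mean -0.99). Among PRC2 genes, Eed stood at 0.63 and Ezh2 at -0.32. Jarid2, whose product joins PRC2, had a mean of 0.81 ± 1.11 over 6 probes, from -0.51 to 2.69. Rbbp4, the gene of a histone-binding subunit found in PRC2, had all 6 probes of its shared promoter with Zbtb8os below 0 (mean -0.98 ± 0.77).

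Cell cycle inhibitor and tumour suppressor genes were high in 4 of 17 regions. Cdkn2a, which encodes p16 and p19, had 6 probes from 0.27 to 2.65 (mean 0.95 ± 0.95), of which 2 were at or above 1. The 50 regions of Zfp zinc finger genes gave 1 high region, Zfp105 at 1.04, and 2 low ones, Zfp704 at -1.62 and Zfp655 at -1.40. Solute carrier genes were high in 11 of 64 regions (17.2%), close to the share of all regions. Collagen genes were high in 1 of 6 and histone genes in 1 of 3, and the 1 olfactory receptor region stood at 0.28.

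Among housekeeping lists, ribosomal proteins were high in 4 of 27 regions, mitochondrial ribosomal proteins in 3 of 15, the proteasome in 2 of 12, translation factors in 2 of 21, tRNA synthetases in 1 of 11 and splicing in 1 of 23. Among all regions the share was 15.8%. The respiratory chain gave 0 of 21 (upper 95% limit 16.1%), DNA replication 0 of 11 (28.5%) and RNA polymerase subunits 0 of 5 (52.2%). The lists go by gene symbols and name patterns. Translation factors thus include the kinase genes Eif2ak1 and Eif2ak3, and the proteasome includes Psme3ip1, while Rpl22l1, with probes at 2.10 and 2.66, is on none of them. The highest region on these lists was Mars2, a mitochondrial tRNA synthetase gene, at 1.59 from probes at 2.68 and 0.50. Sf3b1, of the splicing machinery, stood at 1.54 from probes at 0.54 and 2.53. In both regions 1 probe carried the call. Rpl35a, a ribosomal protein gene that shares its promoter with Iqcg, had all 3 probes at or above 1, at 1.88, 1.07 and 1.32. The 3 low regions were Polr3b (-1.46), Rps6 (-1.03) and Ndufaf4 (-1.02), of RNA polymerase III, the ribosome and respiratory complex I assembly.

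Probes with fewer CpG beside the regions gave a second reading that the rule had not used. The flank of a region is the mean log2 ratio of all probes with fewer than 4 CpG inside it or within 1000 bp. Flanking probes can report the same sheared DNA fragments as the region, so they are not independent samples. Over 3765 regions with at least 3 flanking probes, Pearson's r between region and flank was 0.39 and Spearman's rho 0.32, a description across regions of 2 arrays. The median flank was 0.15 for regions from 0 to under 0.5, 0.56 for those from 1 to under 1.5 and 1.41 for those at or above 2. It was 0.01 for low regions, and only 3 of the 91 low regions had a flank at or below -1.

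In the share at or above 1, the flanks gave the same order of the 3 sets as the regions. The flank was at or above 1 at 125 of 163 developmental regions (76.7%), at 8 of 145 housekeeping regions (5.52%) and at 430 of 3457 regions on neither list (12.4%). Among high regions, it was at or above 1 at 86 of 98 developmental ones (87.8%), 162 of 482 others (33.6%) and 0 of 13 housekeeping ones. Conversely, 116 of the 593 high regions had a flank at or below 0, and 0 of them were developmental.

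**Figure D4:**
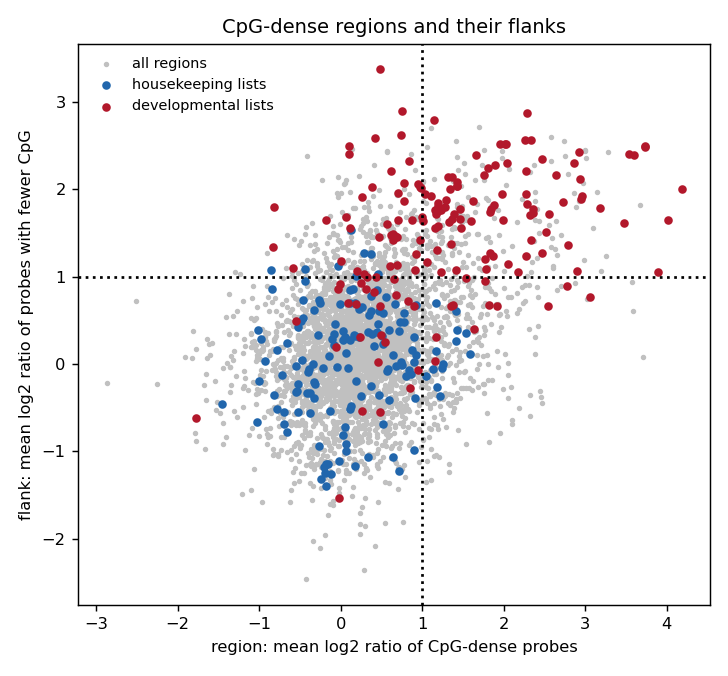
Mean log2 ratio of each region's CpG-dense probes (horizontal axis) against that of the probes with fewer than 4 CpG inside it or within 1000 bp (vertical axis); each point is 1 region with at least 3 flanking probes, with developmental lists in red, housekeeping lists in blue and all regions in grey, and dotted lines at 1. Of 163 developmental regions 125 lie above the horizontal line, against 8 of 145 housekeeping regions.

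At developmental genes the CpG-dense core often read lower than its flank. The median flank was 1.64 and the median region 1.23, and the flank was the higher of the pair at 98 of 163 regions (60.1%), with a median difference, region minus flank, of -0.31. At all regions the flank was higher in 47.2%, with a median difference of 0.06. Of the 65 developmental regions under 1, 39 had a flank at or above 1. Foxd1, a forkhead gene of the kidney and retina, had 2 regions at 0.10 and 0.49, with flanks at 2.49 and 3.37. Olig2, of motor neuron and oligodendrocyte progenitors, stood at 0.76 beside a flank of 2.90, and Gata6 at 0.84 beside a flank of 2.33. Cbx8, a PRC1 subunit gene, showed the same order off the developmental lists, with probes at -0.39 and 0.48 (mean 0.05) and a flank of 2.06. Irx1, a homeobox gene, read -0.51 and -1.13 in its core and 1.80 in its flank, and Wnt7b -0.83 and 1.34. The G+C of developmental regions had a median of 65.6%, and that of housekeeping regions 63.3%. The part of base composition in the difference between core and flank was not tested. Counting a region as marked when either the core or the flank reached 1 gave 137 of 163 developmental regions (84.0%), 21 of 145 housekeeping regions (14.5%) and 908 of all 3765 (24.1%).

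Around high developmental regions the raised ratio was broad. All probes except the region's own CpG-dense ones were averaged in windows of 500 bp, so CpG-dense probes of neighbouring regions could enter. The mean was 1.89 just past the middle of the region, 1.45 at 1500 to 2000 bp and 1.33 at 2500 to 3000 bp. On the other side it was 1.07 at the same outermost distance. Around the other high regions it was 0.94 just past the middle, 0.10 at 1500 to 2000 bp and 0.03 at 2500 to 3000 bp. Around housekeeping regions it stayed between -0.27 and 0.04 in every window.

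**Figure D5:**
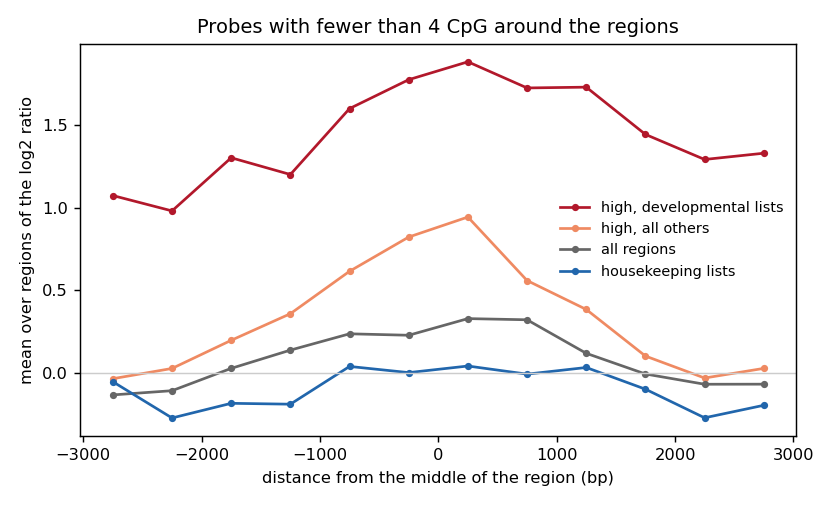
Mean over regions of the log2 ratio of all probes except the region's own CpG-dense ones (vertical axis) by distance from the middle of the region along the chromosome, not turned to the gene's strand, in windows of 500 bp (horizontal axis). The title names probes with fewer than 4 CpG, but CpG-dense probes outside the region were included. The line of high developmental regions peaks at 1.89 and ends at 1.33, that of the other high regions peaks at 0.94 and ends at 0.03, and that of housekeeping regions stays near 0.

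Some high regions had flat flanks. Slc22a21, a carnitine transporter gene, had probes at 3.73 and 3.70 (chr11:53936706-53936955) and a flank of 0.08. Vim, which encodes vimentin, had 2.30 and 2.59 with a flank of -0.31, and Dusp1, an early-response phosphatase gene, 2.34 and 2.44 with a flank of 0.11. In these 3 regions both probes were close together and far above the threshold while the neighbours were not. Loxl1, a lysyl oxidase-like gene, also had a flat flank, at -0.13, beside a region of 1136 bp whose 5 probes were unequal, at 2.92, 2.00, 4.28, 0.88 and 0.16. Of these, 3 were above the threshold and 2 under it. Slc22a21, Vim and Dusp1 were chosen after their values were seen.

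The highest regions of at least 4 probes included genes on no developmental list. D930049A15Rik and Zmiz1, which share a region of 5 probes over 1153 bp, read 4.16, 2.00, 1.16, 2.52 and 3.88 (mean 2.74 ± 1.27) with a flank of 2.55. Zmiz1 encodes a transcriptional coactivator. Sp8, a limb and forebrain zinc finger factor, had a mean of 2.59 ± 1.01 and Slc6a20a, an amino acid transporter gene, 2.60 ± 0.70, with all 4 probes of each at or above 1.60. AI851790 followed at 2.37 ± 0.55 and 5930403L14Rik at 2.38 ± 2.07. Aurka, a mitotic kinase gene, and Cstf1 share a promoter whose probes read 1.43, 3.28, 1.80 and 1.62 (mean 2.03 ± 0.85). Slc24a4, Shisa3, Pcdh8, Pxdc1, Npr1 and Ccdc177 completed this set with means from 1.82 to 2.06. Flanks over the whole set ran from -0.13 at Loxl1 to 2.55 at D930049A15Rik/Zmiz1.

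At the other end, the lowest region of at least 4 probes was that of Pde12, a nuclease gene, at -1.99, -1.74, -0.34 and -1.37 (mean -1.36 ± 0.72). Ep400 read -0.23, -3.49, -0.57 and -0.52 (mean -1.20 ± 1.53), Tfg -0.02, -0.86, 0.44 and -3.70 (mean -1.03 ± 1.86), and Ttc7 -3.43, 0.03, -0.31 and -0.44 (mean -1.04 ± 1.61). In these 3, 1 probe held most of the difference. Khsrp had 4 probes from -2.52 to -0.42 (mean -1.19 ± 0.97). Among 2-probe regions the lowest was the shared promoter of Mob1a and Mthfd2, at -2.76 and -2.97, followed by Ing1, a tumour suppressor gene, at -2.50 and -2.51. Their flanks stood at -0.22 and 0.72.

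Probes of a region agreed only loosely. Across 2200 regions of 2 probes, the first and the second had a Pearson correlation of 0.28 and a Spearman correlation of 0.23, with a median absolute difference of 0.74. Of the 594 high regions, 204 (34.3%) had every probe at or above 1 and 517 (87.0%) had every probe above 0. Among high developmental regions, 44 of 98 (44.9%) had every probe at or above 1. Every probe was at or below -1 in 20 regions.

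Several genes held regions on both sides of the threshold. Of 149 genes with more than 1 region, 20 had all regions high, 38 some and 91 none. Among all 3770 regions 15.8% were high, and how many such genes that share alone would give was not computed. Foxq1, a forkhead gene, stood at 0.31 upstream and 3.89 inside. Foxd3, a forkhead gene of the neural crest, had regions at 1.79 upstream and at 1.54 and 0.20 inside the gene. In both genes the lowest region lay within a few kilobases of a high one.

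The longest regions were not the highest. Phf13, which encodes a histone reader, had the longest, 2176 bp upstream of the gene with 10 probes from -0.60 to 1.94 (mean 0.68 ± 0.77). Insm1, a neuroendocrine zinc finger gene, followed with 2095 bp (mean 0.69 ± 0.81) beside a flank of 1.45. Pou2f1 (0.16), Adra2c (0.45) and Cpeb2 (-0.14) were the next longest. Regions of at least 1000 bp were high in 16.2% of cases and those under 250 bp in 15.7%.

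Position within the gene moved with the share of high regions. Regions with probes both upstream of and inside the gene, which span the start, were high in 11.0% of cases (187 of 1694). Regions inside the gene only were high in 20.5% (279 of 1361) and regions upstream only in 18.7% (117 of 626). The array file gave distances to the transcription start for array 1 alone. There, 1563 of 1884 regions (83.0%) had their middle within 500 bp of the start. Those from 0 to 250 bp past it were high in 9.94% of cases, those from 500 to 1000 bp in 34.8% and those from 1000 to 3000 bp in 34.5%. Developmental regions made up 2.04%, 13.9% and 23.6% of these 3 bins. By chromosome, the share ran from 9.40% on chromosome 4 to 24.2% on chromosome 18.

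Promoter sequences from RefSeq (GRCm38.p6, 300 bases from 250 before to 50 after the start) were set beside the ratios for genes with 1 promoter entry and 1 region. Of 3894 genes, 2358 matched and 2286 were used. The region of a gene could lie upstream of it or inside it, so it need not overlap this window. These promoters held a median of 27 CpG, against 7 in all 22862 RefSeq promoters with 1 entry. Promoters of genes with a high region held 24 and those with a region from 0.5 to under 1 held 26. Those from 0 to under 0.5 held 29 and those under 0 held 26. From 0 upward the median CpG number in this window thus fell as the Ring1B ratio rose. Promoters with a region under 0 did not follow that order.

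Motif letters were searched on both strands. The ETS core CCGGAAG, which itself holds a CpG and is bound by factors such as GABPA, was in 9.12% of all promoters and in 18.2% of those of region genes. It was in 14.7% of promoters with a high region and 22.8% of those with a region under 0. It was in 41 of 115 housekeeping promoters (35.7%) and in 1 of 68 developmental ones (1.47%). Where both region and flank were at or above 1 it was in 9 of 114 (7.89%), and where both were under 0.5 in 245 of 1132 (21.6%). The letters CAGCTG, an E-box, went the other way, in 15.3% of promoters with a high region and 9.40% of those under 0, with 16.1% of all promoters.

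The other letters differed less. CCAAT, bound by NFY, was in 39.1% of promoters with a high region and 34.8% of those under 0, and in 38.2% of all promoters. GGGCGG, bound by SP1 and KLF factors, was in 72.8% and 74.3%, against 35.2% of all promoters, and TATAAA in 7.03% and 5.96%, against 14.8%. The E-box CACGTG, bound by MYC and MAX, was in 12.2% and 11.7% (all promoters 7.12%). The letters of NRF1 (a palindrome of 10 bases), YY1 (AAGATGGCG) and CREB (TGACGTCA) were in under 4% of either set. In all promoters they were in 0.949%, 1.55% and 1.85%. A match shows that the letters are in the window, not that a factor binds there, and GGGCGG and CCGGAAG overlap other GC-rich letters.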

How the data were processed

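Both array files were written by the authors' scanner software (Feature Extraction, version 9.1.3.1 per the file headers). Their processed signals are intensity values that had been background-subtracted, spatially detrended and dye-scaled, per the file headers; the dimmest spots hold a floor value. The deposited series table holds log2 ratios of mean signals without background subtraction, as checked against the array files, and served as an alternative. Cy5 holds IP and Cy3 input, per the labels' protocols.

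The log2 ratio of processed signals was computed, and each array was centred on its median probe (0.23 and 0.16). Control spots and outliers (141 and 17) were left out. The 2 arrays had 237195 and 237185 probes, and input stood well above background at 74.1% and 76.3% of them. Chromosome 9 regions were built within each array.

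Gene names came from the array files and were updated with the RefSeq table of GRCm38.p6, only to a gene on the same chromosome: 2966 matched a symbol and 843 an older symbol, and 97 were kept as on the array. Regions numbered 353 with more than 1 gene and 70 with none.

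No statistical test was made. Named regions were the 15 highest and 5 lowest of at least 4 probes, the 5 longest, up to 3 of each list by size and 26 genes by name; others are illustrations of lists or chosen after their values were seen. A few genes are not reported here. The regions, the 24 lists and the naming rule were chosen with earlier results of these data known. The 16 alternatives covered background correction, normalization, probe filters, CpG, gap and probe minimums, and the threshold. The steps were tested on simulated data. Tools were R 4.3.3, limma 3.58.1, Python 3.11.15, pandas 2.3.3 and numpy 2.4.6.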

Additional observations from a re-analysis of the deposited data

Results flagged for a closer look

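Chromosome X was outside the rule for regions, which took numbered chromosomes only. The same joining of CpG-dense probes there gave 76 regions, with 11 high (14.5%, a mean log2 ratio at or above 1) and 6 low, with a median of 0.15. The exact 95% binomial interval of the high share, 7.45 to 24.4%, holds the 15.8% of the regions on numbered chromosomes. The low share was 7.89%, against 2.41% there. These regions are given because they lie outside the rule; neither difference was tested.

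Single CpG-dense probes, with no such neighbour within 500 bp, also lie outside the rule. Of 5051 usable ones on numbered chromosomes, 1277 (25.3%) read 1 or more and 531 read -1 or less, with a median of 0.25. A single probe has no second probe to set against it, and probes with 4 CpG passed 1 in 23.3% of cases.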

How the results depend on the processing

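Under each of the 16 alternatives the share of high regions was larger among developmental than among housekeeping regions. The share of high developmental regions ran from 38.0% to 77.3%, and that of housekeeping regions from 0% to 21.4%. The counts and shares moved as follows. With normexp, 1077 regions were high and 20 low, with 77.3% of developmental and 21.4% of housekeeping regions high. After loess the values were 972, 39, 72.4% and 20%. The centred series table gave 998, 23, 73.0% and 20.7%. Without centring, 50 were low and 16.6% of housekeeping regions were high. Joining probes with at least 3 CpG gave 1358 high and 314 low regions and 73.3% for developmental ones. With at least 5 CpG there were 220 and 19, with 49.3% and 4.76%. Regions of at least 3 probes gave 207 high and 21 low, and those of at least 5 gave 22 and 0, with 0% of housekeeping regions. At a threshold of 1.5, 270 were high and 22 low, with 38.0% and 1.38%. Fewer or more regions were built under the CpG and probe minimums. For the background, loess and table settings the cause was not tested. Of 648 values of named regions under 9 settings, 628 moved by less than the SD over their probes and 20 moved by more. Among regions called high or low in the main values, 0 changed sign. Sign changes of regions between -1 and 1 were not counted. No paired analysis was possible because each group is 1 array and the arrays share no probe. Without replicates, the precision of each region rests on 2 to 10 probes. Of the regions' probes, 98.3% were well above background in the input channel and 99.3% in the IP channel, while 21 were saturated in the IP channel.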
